A study of Homo sapiens with 16 samples.

Results

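The clustered replication-dependent histone genes make the bulk of the histones H1, H2A, H2B, H3 and H4 that package new DNA. They were taken as the genes of the deposited tables whose symbols start with HIST1H to HIST4H, without names ending in PS or in PS and a digit. This rule found 72 genes, and 69 had at least 10 counts summed over the libraries of at least 1 assay. There were 23597 genes in the RNA-seq file and 19201 in the Ribo-seq file. The 69 genes comprised 6 of family H1, 16 of H2A, 19 of H2B, 14 of H3 and 14 of H4. By cluster, 52 belonged to HIST1 on chromosome 6, 13 to HIST2, 3 to HIST3 and 1 to HIST4. HIST2H2BA and HIST2H2BC had no row in the Ribo-seq table, so 67 were measured there. HIST1H2AA, HIST1H2BA and HIST1H4G fell under the count minimum.

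RNA-seq counted transcripts, and Ribo-seq counted the mRNA fragments that ribosomes protect from a nuclease, in WI-38 cells, established human fetal lung fibroblasts, which cease to divide with serial passage. The groups were senescent cells (passage 36) given 2 h of heat shock at 44 °C, senescent control cells, young cells (passage 24) given the same heat shock, and young control cells. Each group had 2 libraries per assay, 16 in all. The temperature is printed as 440C in the labels and was read as a lost degree sign. All groups had been deprived of serum for 24 h and returned to full medium for 24 h to synchronise the cell cycle, and came from 1 cell line. Nothing in the labels says whether replicates were separate cultures, so the p-values measure the spread between these libraries, which may be technical. Library totals were 26434514 to 37126871 counts in RNA-seq and 4581141 to 9104077 in Ribo-seq. Fibroblast genes were abundant: VIM had 4712 to 7753 RNA CPM (a gene's counts scaled to a common library size). Markers of other cell types were present in part. The 7 epithelial markers summed to 150.1 to 170.5 RNA CPM in senescent and 98.8 to 109.9 CPM in young cells, mostly from the keratins KRT19 and KRT18, with SFTPC at 0 in all libraries. The 5 leukocyte markers summed to 101.3 to 172 CPM in senescent and 109 to 164 CPM in young cells, nearly all from the lysosomal gene CD68, with CD3E at 0. The 5 endothelial markers summed to 36.0 to 62.8 CPM in senescent and 29.1 to 36.9 CPM in young cells, nearly all from the receptor gene TEK, with CDH5 at 0. Their part in the histone values was not tested.

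Replication-dependent histone genes are transcribed mainly while DNA is copied, so that the supply of histones follows that of DNA. Their mRNAs typically end in a stem-loop and not in a poly(A) tail. The stem-loop is bound by SLBP, which takes part in processing, translation and decay, and the U7 snRNP directs the cut behind it. Some of these genes are also known to make polyadenylated transcripts, in particular in cells that have left the cell cycle. The labels do not say whether RNA was selected by its poly(A) tail. If they were, RNA counts, and the ratios of footprints to RNA made from them, read the tailed forms alone, and this was not tested.

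The stem-loop is shown because it is what the members share in sequence and what sets their mRNAs apart. It was searched in GENCODE 29 transcripts (GRCh38) behind the stop codon. The search asked for a stem of 6 bases starting with GG, a loop of 4 starting with TT and the stem's exact reverse complement. In the lines that follow, capitals mark these 16 bases and lower case the 5 bases on each side, read 5′ to 3′. Coordinates are those of the capitals.
HIST1H2AC (H2A, chr6:26124669-26124684, plus strand): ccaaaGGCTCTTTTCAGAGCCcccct
HIST1H2BD (H2B, chr6:26158587-26158602, plus strand): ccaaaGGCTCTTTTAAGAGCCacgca
HIST2H2BE (H2B, chr1:149886188-149886203, minus strand): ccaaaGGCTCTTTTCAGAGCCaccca
HIST1H3H (H3, chr6:27810516-27810531, plus strand): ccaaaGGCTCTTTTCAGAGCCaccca
HIST1H4E (H4, chr6:26205001-26205016, plus strand): tcaaaGGCCCTTTTCAGGGCCgccca
HIST2H4A (H4, chr1:149833032-149833047, plus strand): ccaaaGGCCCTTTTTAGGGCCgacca

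Of the 69 genes, 67 had a protein-coding transcript in this annotation, but for 31 of them it stopped at the stop codon, so that no 3′ end could be searched. The stem-loop was found in 30 of the other 36. It lay 22 to 67 bases behind the stop codon, with a median of 36. The stem read GGCTCT in all 22 hits of families H2A, H2B and H3, and GGCCCT in all 8 hits of family H4, and 4 different 16-base forms occurred. The GG that opens each stem and the TT that opens each loop were set by the search. Among genes with at least 100 bases behind the stop codon, 25 of 29 members held it in the first 100, against 3 of 18236 other protein-coding genes, or 0.0165%. In HIST2H2BE the annotated transcript ran on past the stem-loop by 1729 bases, and in HIST1H2AC by 1114. HIST1H2BK and HIST1H1C, the members with the most RNA counts, are among those annotated only to the stop codon.

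In RNA-seq the 69 genes together took a very small share of the counts, and the share was higher in senescent than in young cells. It was 0.0181% and 0.0170% in senescent heat shocked cells, 0.0204% and 0.0174% in senescent control cells, 0.00879% and 0.00735% in young heat shocked cells, and 0.00840% and 0.00662% in young control cells. Both senescent libraries lay above both young libraries, in control and under heat shock. Scaled to the bulk of genes by TMM, edgeR's scaling of library sizes, the summed level was 177.6 ± 14.2 CPM in senescent control and 66.8 ± 9.95 CPM in young control cells (SD, n = 2 each). Their log2 ratio was 1.41, and with libraries set side by side by replicate number it was 1.35 and 1.49.

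In Ribo-seq the same genes took a far larger share, and there young control cells stood highest. The share was 0.157% and 0.625% in senescent heat shocked cells, 0.244% and 0.661% in senescent control cells, 0.201% and 0.608% in young heat shocked cells, and 1.051% and 1.069% in young control cells. Both young control libraries lay above all 6 others. In the other 3 groups replicate 1 was far below replicate 2, so that these groups overlapped each other entirely. The median over 65 members of the log2 difference of replicate 1 from replicate 2 was −2.27 in senescent heat shock, −1.49 in senescent control and −1.55 in young heat shock, and −0.01 in young control. In RNA-seq it lay between −0.07 and 0.09 over 22 members in all 4 conditions.

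**Figure D1:**
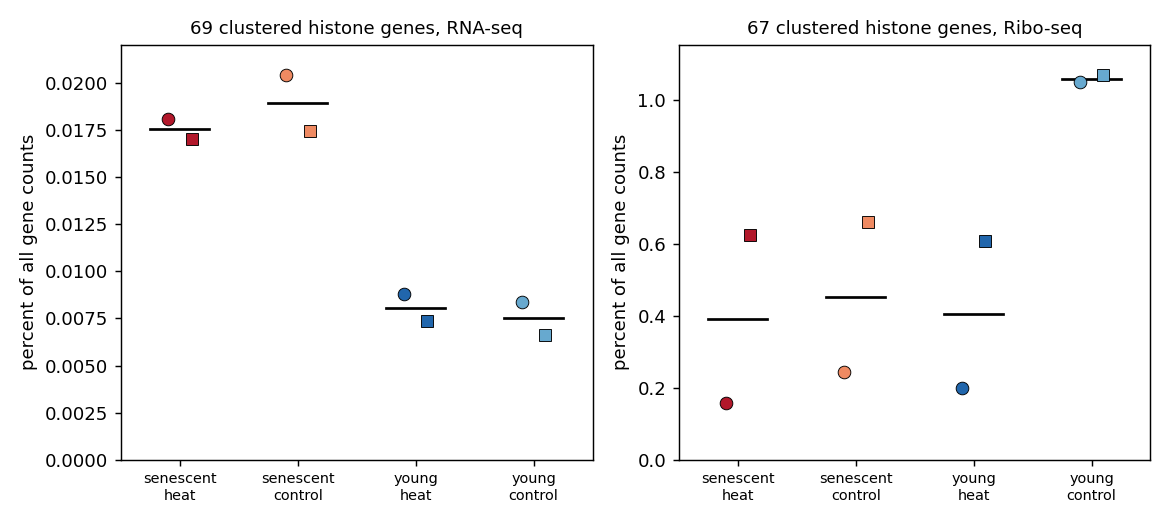
Share of all gene counts, in percent, taken by the clustered histone genes in each library (circles replicate 1, squares replicate 2, bars the mean of 2) in RNA-seq (left, 69 genes) and Ribo-seq (right, 67 genes). The senescent libraries hold 0.0170% to 0.0204% in RNA-seq, above all young libraries, while the young control libraries hold 1.051% and 1.069% in Ribo-seq, above all others.

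The young control footprint libraries were almost alike. Over all genes with at least 20 counts their chi-square per degree of freedom was 1.73, against 38.7 in senescent heat shock, 17.2 in senescent control and 26.8 in young heat shock, where 1 is pure sampling noise. Over histone members alone it was 4.12, against 341, 161 and 184 in those groups. A value above 1 does not tell separate cultures from repeat preparations of 1 culture. They were kept as 2 samples, and results were also computed with them counted as 1.

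RNA counts were concentrated in few members. HIST1H2BK, which encodes an H2B, took 42.5% of all histone RNA counts, and with HIST1H1C, HIST2H2BE, HIST1H2AC and HIST1H2BD the 5 highest took 81.5%. A further 31 of the 69 had fewer than 10 RNA counts over all 8 libraries. Footprints were spread more evenly: HIST1H2BK was again first but took 4.16%, and the 10 highest took 31.6%. How reads shared by near-identical copies were split is not given. HIST1H4J and HIST1H4K, for example, had equal footprint counts in every library. The part of this split in the even spread and in the footprint levels that follow was not tested. Per length, in TPM (a length-scaled share of all transcripts, as the authors deposited it), the median member had 0.165 in RNA-seq and 160 in Ribo-seq in senescent control cells, and 0.165 and 410 in young control cells. In young control cells 61 of 67 members had over 100 TPM in footprints, while 5 had over 10 TPM in RNA-seq. TPM of the 2 assays are shares of separate totals, so these levels rank genes within an assay and give no number of ribosomes per mRNA. Across the 67 members, mean RNA and footprint TPM had a Spearman correlation of 0.50 in senescent control and 0.41 in young control cells, with the same libraries behind every point.

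**Figure D2:**
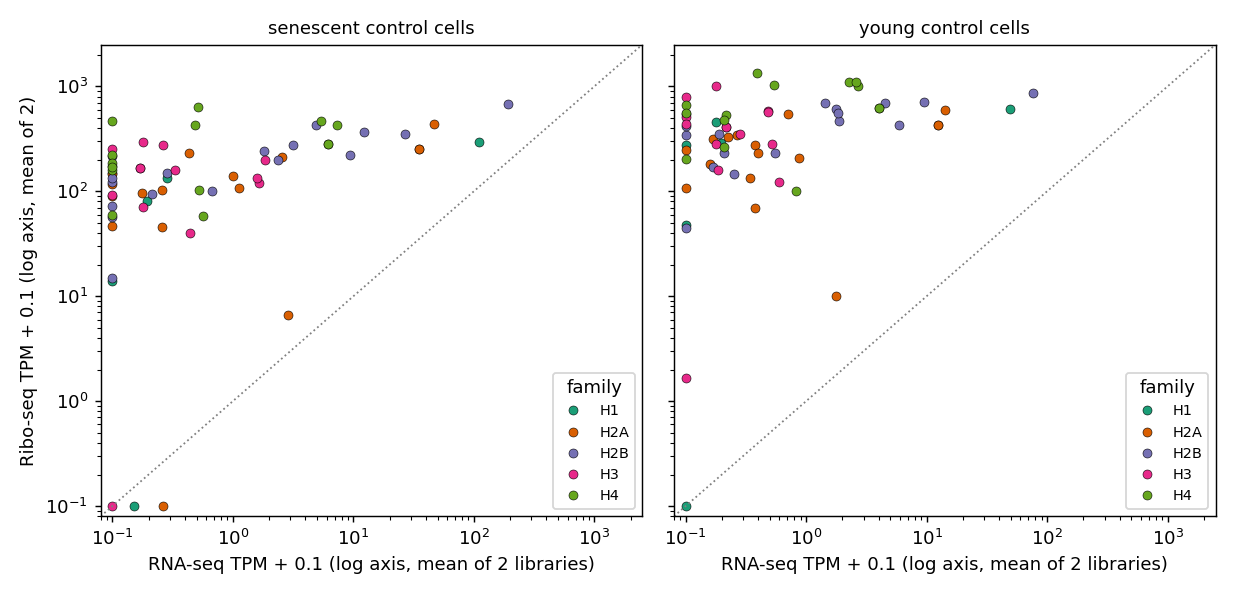
Mean TPM of each histone member over 2 libraries in RNA-seq (horizontal) and Ribo-seq (vertical), both as TPM + 0.1 on log axes, in senescent control (left) and young control cells (right), coloured by family. The dotted line marks equal values. Most members lie far above it: the median footprint level is 160 TPM in senescent control and 410 TPM in young control cells, against a median RNA level of 0.165 TPM in both.

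Changes are given as log2 fold changes ± SE from edgeR's quasi-likelihood fit over all genes (n = 2 libraries per group), with Benjamini-Hochberg adjustment over all genes of a comparison. Of the 69 members, 22 passed the low-count filter in RNA-seq and 65 in Ribo-seq. A member can pass through its high group alone, so counts over those that passed describe them and do not speak for all 69. Copies with equal counts in every library each enter these totals, which hold 20 distinct measurements in RNA-seq and 61 in Ribo-seq. CPM printed per library are scaled by library total alone, while whether groups overlap was read after TMM scaling.

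Between senescent and young control cells, no member passed the threshold of 0.05 in RNA-seq, where 0.0379% of the 13177 tested genes did. At an unadjusted p under 0.05 there were 13 of 22 members, against 7.2% of tested genes, and DESeq2 called 5, all higher in senescent cells, against 1.09%. Without members that had 0 to 3 counts in a compared group, 12 of 20 had such a p. With replicate number added to the edgeR fit (a replicate block), 7 members were called, against 3.72% of tested genes. Both senescent libraries lay above both young libraries in 17 of 22 tested members, against 17.8% of all tested genes. Of the 15 members with at least 10 counts in each young control library, a set that the senescent libraries did not choose, 13 stood higher in both senescent libraries, which is 11 of 13 distinct measurements once equal copies are joined, and HIST2H2BC and HIST2H2BF overlapped. The share of all genes under the same count minimum that stood higher was not computed. The tested members' median change was 1.41, against −0.0028 over all tested genes.

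HIST1H2BK had 82.1 and 81.1 RNA CPM in senescent control cells and 31.9 and 28.6 CPM in young control cells. Under heat shock it had 65.8 and 86.9 CPM in senescent cells and 34.2 and 33.5 CPM in young cells. The senescent libraries were the high ones in both states, without overlap. The change in control cells was 1.51 ± 0.22 (adjusted p = 0.114, edgeR), and under heat shock 1.21 ± 0.22 (adjusted p = 0.148).

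The linker histone gene HIST1H1C, which encodes H1.2, had 52.2 and 28.7 CPM in senescent control cells and 25.3 and 8.98 CPM in young control cells. It also had 50.6 and 25.1 CPM in senescent and 17.9 and 9.31 CPM in young cells under heat shock. Replicate 1 was the higher library in all 4 groups, and the groups differed by 1.31 ± 0.53 in control (adjusted p = 0.663, edgeR). It was the one H1 gene with many transcripts: HIST1H1E, which encodes H1.4, had 15 RNA counts in all, and HIST1H1T, known for its expression in testis, had 10.

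Among H2A genes, HIST1H2AC had 13.8 and 11.2 CPM in senescent control cells and 2.86 and 4.4 CPM in young control cells. Under heat shock it had 9.71 and 9.37 CPM in senescent and 3.06 and 4.09 CPM in young cells. The changes were 1.86 ± 0.31 (adjusted p = 0.155, edgeR) in control and 1.43 ± 0.31 (adjusted p = 0.183) under heat shock. HIST2H2AA3 and its copy HIST2H2AA4 had the same count in every library of both assays, so they stand for 1 measurement. HIST2H2AA3 had 9.57 and 8.88 CPM in senescent control cells and 3.07 and 3.15 CPM in young control cells, a change of 1.64 ± 0.24. Its adjusted p of 0.113 (edgeR) was the lowest among the members in this comparison.

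Among H2B genes, HIST1H2BD had 12 and 9.37 CPM in senescent control and 3.93 and 3.01 CPM in young control cells, a change of 1.69 ± 0.27 (adjusted p = 0.143, edgeR). Heat shock left the senescent libraries at 7.76 and 5.42 CPM and the young ones at 4.45 and 3.86 CPM, again without overlap. For HIST2H2BE the difference was smaller: it had 10.6 and 11.4 CPM in senescent control and 6.14 and 6.89 CPM in young control cells, a change of 0.83 ± 0.25 (adjusted p = 0.432). Under heat shock it had 11.1 and 11.9 CPM in senescent and 11 and 8.59 CPM in young cells, which overlapped after TMM scaling.

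H3 and H4 transcripts were scarce in every group. The 14 H3 genes together had 1.41 and 2.11 RNA CPM in senescent control and 0.754 and 0.440 CPM in young control cells, and the 14 H4 genes had 4.20 and 5.31 CPM in senescent control and 2.96 and 2.86 CPM in young control cells. HIST1H3D, the H3 gene with most RNA counts, had 0.565 and 1.09 CPM in senescent control and 0.162 and 0.183 CPM in young control cells. HIST1H4H, which like most H4 genes encodes the same H4 protein, had 1.34 and 1.20 CPM in senescent control and 0.512 and 0.367 CPM in young control cells, a change of 1.59 ± 0.42 (adjusted p = 0.327, edgeR). The near-identical pair HIST1H4J and HIST1H4K had RNA counts in 1 gene of the pair and 0 in the other in all 8 libraries, with the pair's sum at 13 to 40, so neither is given a fold change. HIST2H4A and HIST2H4B, and HIST2H3A and HIST2H3C, had equal counts within each pair in every library of both assays, so their reads cannot be assigned to 1 copy.

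**Figure D3:**
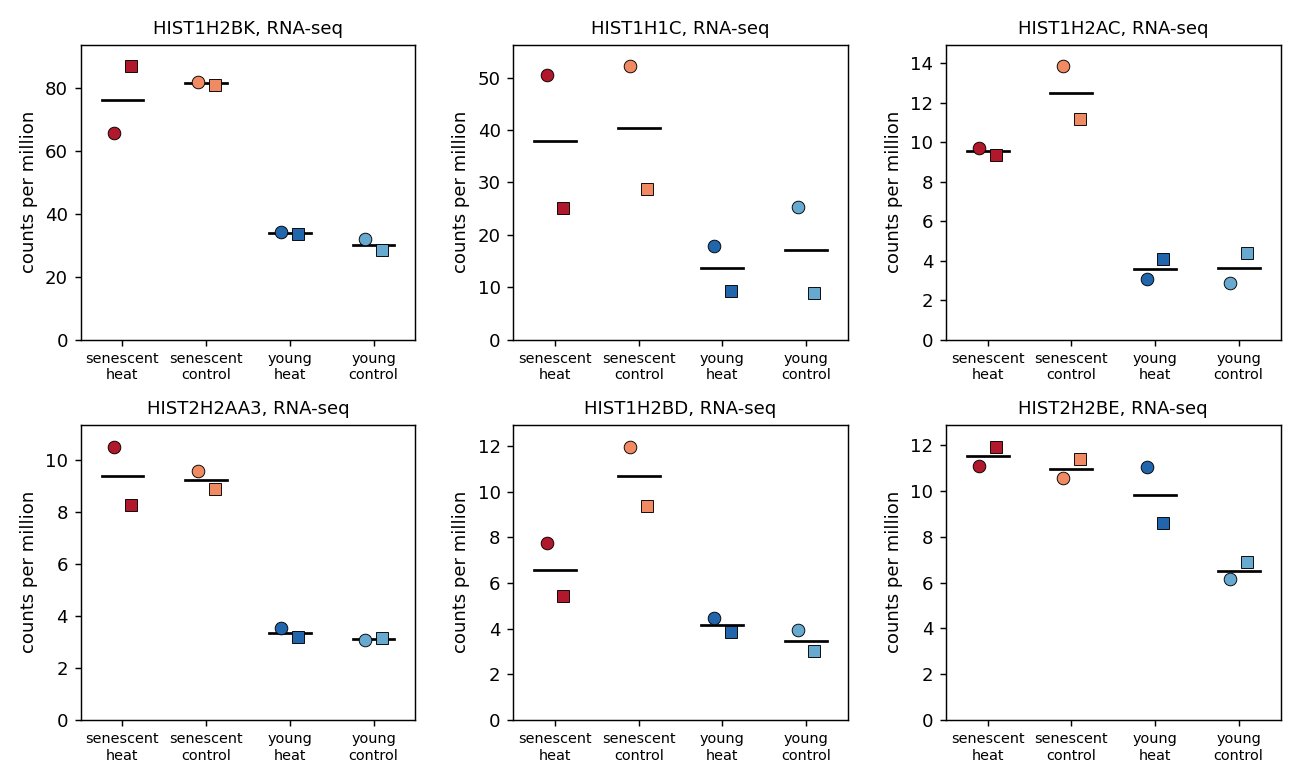
RNA-seq CPM of the 6 histone genes with the most RNA counts, leaving out the copy HIST2H2AA4 of HIST2H2AA3, in each library (circles replicate 1, squares replicate 2, bars the mean of 2). HIST1H2BK has 82.1 and 81.1 CPM in senescent control and 31.9 and 28.6 CPM in young control cells, and in the 6 panels no senescent control library overlaps a young control library.

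Under heat shock the same comparison gave no called member, as no gene of the 13177 tested passed in RNA-seq (0%). At an unadjusted p under 0.05 edgeR had 9 of 22 members, against 11.5% of tested genes, and DESeq2 called 4, all higher in senescent cells, against 1.86%. Without members that had 0 to 3 counts in a compared group, 9 of 21 had such a p. The replicate block called 7, against 13.7% of tested genes. Both senescent libraries lay above both young libraries in 13 of 22 tested members, against 21.7% of all tested genes, and the median change was 0.88, against −0.044 over all tested genes.

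In footprints the order of senescent and young control cells was the opposite. All 65 tested members had lower fitted levels in senescent than in young control cells, with a median log2 change of −1.22, against −0.0075 over all 11288 tested genes. Both senescent libraries lay below both young ones in 61 of 65, against 26.7% of all tested genes. None passed with edgeR, where 0% of tested genes did. At an unadjusted p under 0.05 there were 5 of 65, against 7.84% of tested genes, and DESeq2 called 1, against 0.983%. Without members that had 0 to 3 counts in a compared group, 4 of 64 had such a p. The replicate block called 0, against 0.239% of tested genes. The family medians were −1.55 for H1, −0.95 for H2A, −1.21 for H2B, −1.43 for H3 and −1.22 for H4. For the summed level the log2 ratio of senescent to young control cells was −2.00 between libraries numbered 1 and −0.65 between libraries numbered 2.

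HIST1H1C had 116 and 279 footprint CPM in senescent control cells and 407 and 422 CPM in young control cells, a change of −1.01 ± 0.58 (adjusted p = 0.729, edgeR). HIST1H1B, which encodes H1.5, had 35.8 and 181 footprint CPM in senescent control and 319 and 344 CPM in young control cells, beside 0 RNA counts in both senescent control libraries and 1 in each young control library. Both H1 genes were thus low in both senescent libraries, the first replicate lower than the second. HIST1H3B, which encodes H3.1, had 48.0 and 182 footprint CPM in senescent control and 395 and 408 CPM in young control cells, a change of −1.74 ± 0.81 (adjusted p = 0.663). Its RNA count was 0 or 1 in every library.

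HIST1H4E, the H4 gene with most footprints, had 110 and 235 footprint CPM in senescent control and 348 and 388 CPM in young control cells, a change of −1.03 ± 0.61 (adjusted p = 0.733, edgeR). HIST1H2BK was the tested member with the smallest difference: it had 171 and 305 footprint CPM in senescent control and 320 and 302 CPM in young control cells, which overlap, and a change of −0.32 ± 0.37. HIST1H2AJ had 0 footprint counts in both senescent control libraries and 418 and 236 in the young control libraries. Under heat shock it had 1 and 78 counts in senescent and 64 and 111 in young cells, which overlap. No fold change is given for it.

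In young cells histone footprints were lower in the heat shocked than in the control libraries. The summed level was 4255 ± 2846 CPM in heat shocked and 9390 ± 88.1 CPM in control young cells (SD, n = 2 each, TMM scaled). The log2 ratio was −2.06 between libraries numbered 1 and −0.59 between libraries numbered 2. The median change of the 65 tested members was −1.11, with 64 below 0, and both heat shocked libraries lay below both controls in 62, against 31.6% of all tested genes. HIST1H2AG, HIST1H3H and HIST3H2A were the tested members that overlapped. None passed with edgeR, where 1.15% of tested genes did. An unadjusted p under 0.05 was found for 8 of 65, against 16% of tested genes, and DESeq2 called 1, against 4%. The replicate block called 12, against 2.92% of tested genes. These values share the young control libraries with those of senescent against young control cells, so the 2 comparisons are not independent.

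HIST1H1C had 58.1 and 167 footprint CPM in heat shocked young cells and 407 and 422 CPM in young control cells, a change of −1.63 ± 0.58 (adjusted p = 0.241, edgeR). HIST1H2BD, with 68.3 and 110 CPM in heat shocked and 256 and 255 CPM in control young cells, had a change of −1.25 ± 0.43 and an adjusted p of 0.222, the lowest among the members together with HIST1H2AK. HIST1H1D, which encodes H1.3, was lowest of the tested members, with 7.47 and 35.6 CPM in heat shocked and 188 and 210 CPM in control young cells, a change of −2.96. HIST1H3B had 57.7 and 224 CPM in heat shocked and 395 and 408 CPM in control young cells. HIST1H2BK was again least apart among the H2B genes, at 132 and 226 CPM in heat shocked and 320 and 302 CPM in control young cells, a change of −0.54 ± 0.37 (adjusted p = 0.524).

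**Figure D4:**
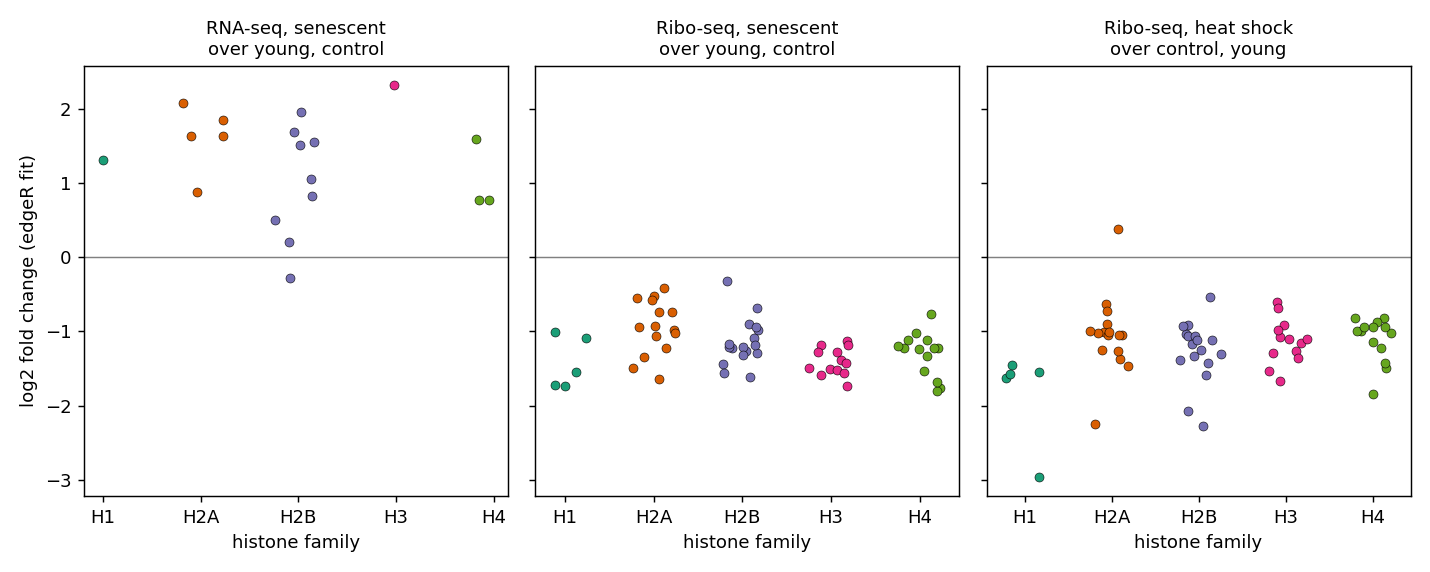
Log2 fold change of each tested member by histone family, for senescent over young control cells in RNA-seq (left) and Ribo-seq (middle) and for heat shock over control in young cells in Ribo-seq (right), without members that had 0 to 3 counts in a compared group and, in RNA-seq, without the pair HIST1H4J and HIST1H4K. Points are spread sideways for legibility. Nearly all RNA-seq points lie above 0, and all 64 points in the middle panel lie below 0 (median −1.22).

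In RNA-seq no member passed for heat shock in either state. In young cells the summed RNA level was 87.3 ± 7.08 CPM in heat shocked and 66.8 ± 9.95 CPM in control cells (SD, n = 2 each, TMM scaled), a log2 ratio of 0.39. It was 0.10 when scaled by library size only, a scaling that puts the median of all tested genes at −0.27. None of 22 members passed, against 1.14% of tested genes, 6 had an unadjusted p under 0.05 with edgeR, against 10.1% of tested genes, and DESeq2 called 0, against 3.38%. Without members that had 0 to 3 counts in a compared group, 5 of 21 had such a p. HIST2H2BE had 11 and 8.59 CPM in heat shocked and 6.14 and 6.89 CPM in control young cells, a change of 0.87 ± 0.25 and the lowest adjusted p among the members, 0.209. Both heat shocked libraries lay above both controls in 11 of 22 tested members, against 19.5% of all tested genes.

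In senescent cells no histone member passed for heat shock in either assay. The summed RNA level was 193 ± 7.83 CPM in heat shocked and 178 ± 14.2 CPM in control senescent cells, and the summed footprint level was 4508 ± 3928 CPM in heat shocked and 4177 ± 2617 CPM in control senescent cells (SD, n = 2 each, TMM scaled). The RNA log2 ratio was 0.12, and −0.11 when scaled by library size only. The footprint log2 ratio was −0.43 between libraries numbered 1 and 0.27 between libraries numbered 2. The median footprint change of 65 members was 0.12, and −0.20 by library size only, which puts the median of all tested genes at −0.25. No member passed in RNA-seq, where 0.577% of tested genes did, or in Ribo-seq, where 8.35% did. At an unadjusted p under 0.05 edgeR had 3 of 22 members in RNA-seq, against 8.29% of tested genes, and 1 of 65 in Ribo-seq, against 28.7%. Without members that had 0 to 3 counts in a compared group, it had 1 of 20 in RNA-seq and 0 of 64 in Ribo-seq. DESeq2 called 0 members in RNA-seq, against 2.14% of tested genes, and 1 in Ribo-seq, against 13.2%. In RNA-seq both heat shocked libraries lay above both controls in 6 of 22 tested members, against 14.7% of all tested genes, and below in 4, against 16.4%. In footprints HIST1H2AJ and HIST3H2A were the members that lay above without overlap, 2 of 65 tested, against 26.8% of all tested genes. HIST1H2BK had 194 and 364 footprint CPM in heat shocked and 171 and 305 CPM in control senescent cells.

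The heat response of senescent cells minus that of young cells was above 0 in footprints for all 65 tested members, with a median of 1.28, against −0.0054 over all tested genes. The sign rested on 1 library: without senescent heat shock replicate 2, 16 of 65 were above 0 and the median was −0.34. With each other library left out in turn, 60 to 65 were above 0. No member passed the test of this difference, and 0% of tested genes did. The lowest adjusted p among members was 0.834 (edgeR), and DESeq2 called 0, against 0.0886% of tested genes. An unadjusted p under 0.05 was found for 1 of 65, against 4.91% of tested genes. Without members that had 0 to 3 counts in a compared group it was found for 0 of 64. For HIST1H2BK the difference was 1.07 ± 0.52 (adjusted p = 0.834). In RNA-seq the median difference was −0.22, and 3 of 22 had an unadjusted p under 0.05, against 0.903% of tested genes. Without members that had 0 to 3 counts in a compared group, 1 of 19 had such a p. Members called were 0 with edgeR, against 0% of tested genes, and 0 with DESeq2, against 0.0228%.

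Between heat shocked senescent and heat shocked young cells, no tested member had libraries that did not overlap in footprints, against 20.4% of all tested genes with both senescent libraries higher and 20.1% with both lower. The median change of 65 members was 0.06, and −0.08 by library size only. No member passed with edgeR, where 0.00886% of tested genes did, 0 of 65 had an unadjusted p under 0.05, against 13% of tested genes, and DESeq2 called 0, against 1.13%. HIST1H2BK was highest with a change of 0.75 ± 0.37 (adjusted p = 0.428), from 194 and 364 CPM in senescent and 132 and 226 CPM in young heat shocked cells.

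Footprints relative to RNA were compared for the 21 members tested in both assays, as the footprint change minus the RNA change in 1 fit of all 16 libraries. This difference is called translational efficiency, and where RNA counts cover tailed forms alone it sets all footprints against those forms. Between senescent and young control cells its median was −2.32, against −0.0098 over the 11166 tested genes, and 20 of 21 members were below 0. The exception was HIST1H4J, whose RNA counts alternate with those of HIST1H4K. No member passed with edgeR, where 0.00896% of tested genes did, though 14 of 21 had an unadjusted p under 0.05, against 0.788% of tested genes, and DESeq2 called 1, against 0.0537%. Without members that had 0 to 3 counts in a compared group, 13 of 19 had such a p. HIST1H2BD had −2.69 ± 0.54 (adjusted p = 0.423, edgeR), the lowest adjusted p. HIST1H2BK had −1.84 ± 0.46 and HIST1H1C −2.33 ± 0.86.

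For heat shock in young cells the median efficiency change of the 21 members was −1.45, against 0.016 over all tested genes, with no member called, against 0.0896% of tested genes. At an unadjusted p under 0.05 edgeR had 5 members, all of family H2B, against 4.11% of tested genes, and DESeq2 called 0, against 0.421%. HIST2H2BE had −2.47 ± 0.78 (adjusted p = 0.780) and HIST1H2BD −1.80 ± 0.54 (adjusted p = 0.701). In senescent cells the median was 0.16, no member was called, against 2.43% of tested genes, and DESeq2 called 0, against 5.77%. There 2 had an unadjusted p under 0.05, against 16.7%. They were HIST1H4J and HIST1H4K, whose RNA counts alternate, and 0 of 19 remained without members that had 0 to 3 counts in a compared group. Between senescent and young heat shocked cells the median was −0.64, no member was called, against 0% of tested genes, 0 had an unadjusted p under 0.05, against 6.56%, and DESeq2 called 0, against 0.116%. The test of the difference in heat response called no member, against 0.00896% of tested genes, with 2 at an unadjusted p under 0.05, against 2.28%, and DESeq2 calling 0, against 0.0358%. In all 4 groups the 21 members ranked at or above the 97.7 percentile of 11166 genes in mean footprint over RNA CPM (0.1 CPM added to each). For HIST1H2BK the log2 of this ratio was 1.85 in senescent heat shock, 1.53 in senescent control, 2.38 in young heat shock and 3.35 in young control cells.

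Genes that act with the histone genes were read from lists of the pathway. SLBP, the stem-loop binding protein, had 92.1 and 72.2 footprint CPM in senescent control and 91.3 and 85.6 CPM in young control cells, a change of −0.03 ± 0.21. In RNA-seq SLBP had 65.4 and 44.4 CPM in senescent control and 64.3 and 59.9 CPM in young control cells. ZNF473, which encodes a protein of the U7 snRNP machinery, rose on heat shock in RNA-seq in both states. It had 52.4 and 37.4 RNA CPM in heat shocked and 6.78 and 9.82 CPM in control senescent cells, a change of 2.65 ± 0.25 (adjusted p = 0.0052, edgeR). In young cells it had 60.9 and 60.5 RNA CPM after heat shock and 12.4 and 11 CPM in control, a change of 2.66 ± 0.25 (adjusted p = 0.0034).

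Of the 20 genes for histone pre-mRNA processing and mRNA turnover, ZNF473 was the one that passed on heat shock in RNA-seq, in senescent cells, where 0.577% of tested genes did, and in young cells, where 1.14% did. In footprints 2 of the 20 passed on heat shock in senescent cells, against 8.35% of tested genes, and none in young cells, against 1.15%. They were CSTF2, a cleavage stimulation factor subunit with 40.6 and 63.2 CPM after heat shock and 30.1 and 30.0 CPM in control senescent cells and a change of 1.07 ± 0.26 (adjusted p = 0.043, edgeR), and CPSF3, the endonuclease that cuts histone pre-mRNA, with 0.85 ± 0.21 (adjusted p = 0.0406). No gene of this list passed between senescent and young cells in either assay, in control or under heat shock, where 0% to 0.0379% of tested genes did. No gene passed in any comparison of either assay among the 21 tested histone chaperones or the 11 tested genes of histone gene transcription. Of all tested genes, 0% to 1.14% passed in the RNA-seq comparisons and 0% to 8.35% in those of footprints. NPAT, which activates histone gene transcription in S phase, had 3.68 and 2.19 RNA CPM in heat shocked and 12 and 9.38 CPM in control young cells, a change of −1.58 ± 0.32 that did not pass (adjusted p = 0.0775).

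The replication-independent histones, whose genes are typically expressed through the cell cycle and polyadenylated, had no called member in any comparison. In RNA-seq 11 of 15 were tested, where 0% to 1.14% of tested genes passed, and in footprints 12 of 15, where 0% to 8.35% did. H2BFWT had 0 counts in every RNA library, and H2BFWT, H2BFM and H2AFB1 had 0 in every footprint library. H3F3B, which encodes H3.3, had 305 and 298 RNA CPM in senescent control and 341 and 403 CPM in young control cells, a change of −0.23 ± 0.29. In footprints H3F3B had 129 and 226 CPM in senescent control and 238 and 248 CPM in young control cells, a change of −0.38 ± 0.44 (adjusted p = 0.858, edgeR). H3F3A, which encodes the same protein, had −0.34 ± 0.30 in footprints. The list's median in footprints was −0.45 for senescent over young control cells, beside −1.22 for the 65 tested clustered genes. In RNA-seq these medians were −0.23 for the list and 1.41 for the 22 tested clustered genes.

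Other genes of S phase mostly had lower fitted levels in senescent than in young control cells in both assays. The tested clustered histone genes shared this order in footprints alone. Their median change was −1.22 over 65 members in footprints and 1.41 over 22 members in RNA-seq. Over the 21 members tested in both assays the footprint median was −1.09. A member can pass the RNA filter through its high group alone, so the RNA median does not speak for the rest. Of 35 genes for DNA replication, 34 had a change below 0 in RNA-seq for senescent over young control cells, with a median of −0.62, and all 35 in footprints, with a median of −0.89. None passed, where 0.0379% of tested genes did in RNA-seq and 0% in footprints. In footprints on heat shock of senescent cells, 34 of the 35 had a change above 0 with a median of 0.68, against 0.03 over all tested genes. Of the 35, 1 passed, against 8.35% of tested genes. It was RRM1, a ribonucleotide reductase subunit, at 1.19 ± 0.26 (adjusted p = 0.0286, edgeR).

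The gap between replicate 1 and replicate 2 also appeared in these lists. Summed footprints of the 35 replication genes were 900 and 1815 CPM in senescent heat shocked cells, 814 and 1257 CPM in senescent control cells, 1146 and 1666 CPM in young heat shocked cells, and 1850 and 1931 CPM in young control cells. Those of 5 proliferation markers were 107 and 470, 94.1 and 187, 171 and 304, and 339 and 380 CPM in the same order. In each group replicate 1 was the lower library, and in young control cells the gap was smallest. In RNA-seq replicate 1 was also the lower library in each group, young control included. There the replication genes summed to 544 and 1154 CPM in senescent heat shocked cells, 771 and 1025 CPM in senescent control cells, 880.3 and 1212 CPM in young heat shocked cells, and 1146 and 1578 CPM in young control cells. The proliferation markers summed to 54.5 and 151.5, 67 and 117.5, 91.9 and 149.9, and 146.5 and 214.7 RNA CPM in the same order. Bulk libraries do not tell fewer cells in S phase from less histone mRNA or fewer ribosomes per cell, and the part of cell cycle state in the histone values was not tested. By comparison, summed footprints of the 20 histone mRNA processing genes were 1240 and 1095, 1263 and 1001, 1249 and 1153, and 1147 and 1150 CPM. In these footprints replicate 1 was the higher library except in young control cells. In RNA-seq replicate 1 was the higher library for this list in every group.

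**Figure D5:**
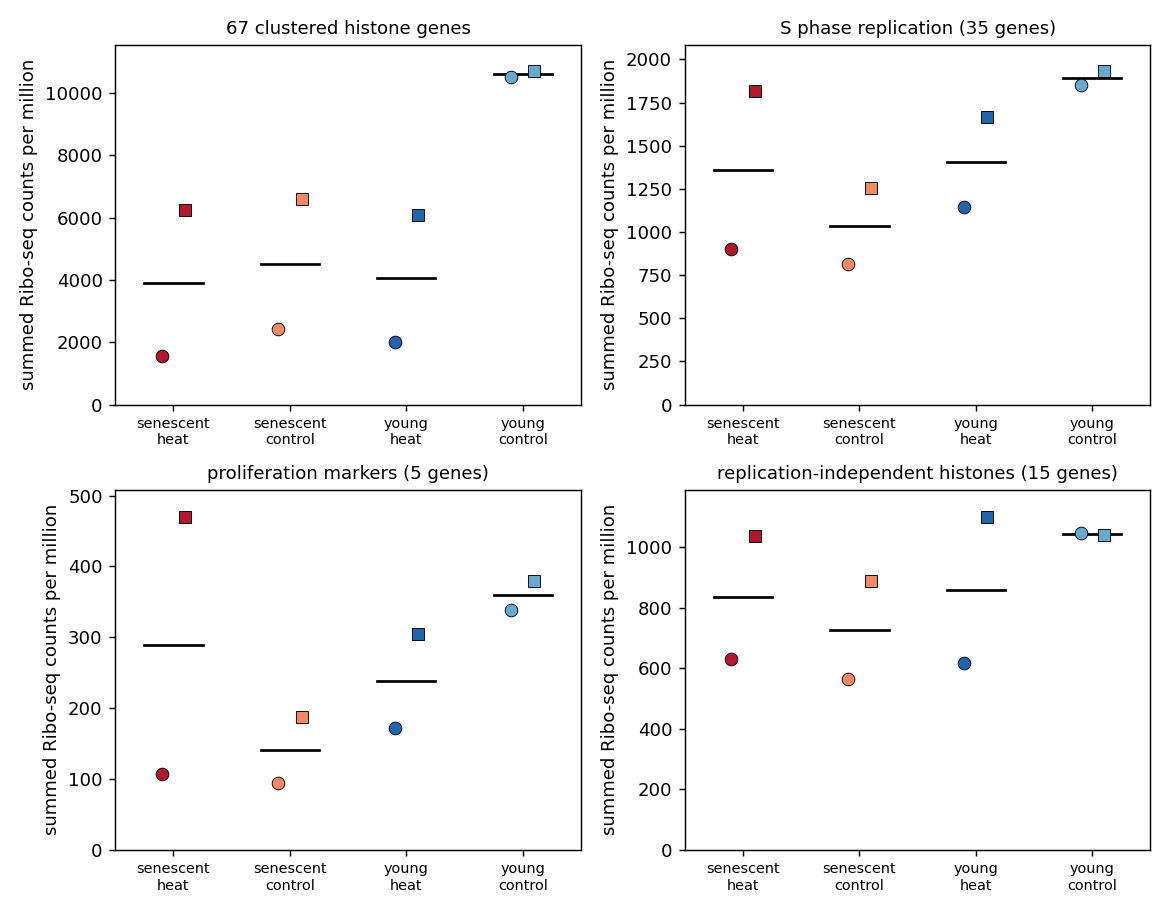
Summed Ribo-seq CPM in each library (circles replicate 1, squares replicate 2, bars the mean of 2) for the 67 clustered histone genes, 35 S phase replication genes, 5 proliferation markers and 15 replication-independent histones. Replicate 1 lies below replicate 2 in senescent heat shock, senescent control and young heat shock in all 4 panels, as in the replication genes with 900 and 1815 CPM in senescent heat shock.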

How the data were processed

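The authors deposited expected counts per gene, which held whole numbers only and needed no rounding, and TPM values, a length-scaled share of all transcripts. STAR, RSEM, Bowtie2 and the build hg19 are named in the submitters' processing notes without roles. The sources used here do not give the annotation, trimming or any selection by poly(A) tail. RNA libraries used a TruSeq RNA kit and footprints an RNase If digest, per the labels' protocols. How reads shared by near-identical histone copies were split is not given, so those copies are uncertain.

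All 32 value columns were used, matched to samples by their titles. Counts were filtered (filterByExpr), TMM scaled and fitted with edgeR 4.0.16 in R 4.3.3, 1 mean per group over all libraries of an assay (4 residual degrees of freedom) or of both (8). P-values were Benjamini-Hochberg adjusted, threshold 0.05. SEs come from the fitted coefficients and are approximate. Means of 2 libraries carry SDs; reads lack molecular identifiers. The fit was tested on simulated data for heat shock in young cells: of 100 genes changed 2-fold and 100 changed 4-fold, 12 and 76 were called in RNA-seq with 11 false calls (13177 genes), and 15 and 74 in Ribo-seq with 9 (11288 genes).

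Named members are the 3 of each family with most counts in each assay, added to by genes of lists that passed and abundant list genes; HIST1H1D, HIST1H2AJ, HIST3H2A, HIST2H2BC, HIST2H2BF, HIST1H2AG, HIST1H2AK, SLBP and NPAT were chosen after their values were seen. The members and lists were chosen with earlier results of these data known. The alternatives tried were scaling by relative log expression or by library size alone, no filter, a replicate block, DESeq2 1.42.0 and leaving out each library; added after seeing the data were GC trend removal (lowess, span 0.3), this with the block, and the young control footprints as 1 sample. Stem-loops came from GENCODE 29, promoters from RefSeq (GRCh38.p14), matched by gene symbol.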

Additional observations from a re-analysis of the deposited data

How the results depend on the processing

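With edgeR as described, no histone member passed in any of the 15 comparisons, and relative log expression scaling, library size only, GC trend removal alone and counting the young control footprints as 1 sample also called 0. For senescent over young control cells in RNA-seq, 5 members were called with no filter on low counts, 5 with DESeq2, and 7 with a replicate block, all higher, where the same settings called 0.418%, 1.09% and 3.72% of all genes. Under heat shock these counts were 3, 4 and 7, against 0.622%, 1.86% and 13.7%. For heat shock in young cells, footprints had 7, 1 and 12 called members, all lower, against 2.88%, 4% and 2.92%, and RNA-seq 1 with the block, against 8.77%. For senescent over young control footprints no filter and DESeq2 each called 1 lower member, against 0.805% and 0.983%, and for heat shock in senescent cells each called 1 higher, against 10.4% and 13.2%. In efficiency the block called 1 lower member for heat shock in young cells, against 0.51%, and 2 for senescent over young control cells, where DESeq2 called 1, each against 0.0537%. GC trend removal with the replicate block called 1 (RNA-seq) and 16 (footprints) for heat shock in young cells, against 9.71% and 3.5%, and 7 and 4 for senescent over young control cells, against 2.43% and 0.496%. It called 6 for senescent over young heat shocked cells in RNA-seq (5.51%), 2 for footprints on heat shock in senescent cells (15.9%) and 2 in efficiency for senescent over young control cells (0.0537%). The cause was not tested. The labels do not say what replicate numbers mark, and each comparison has 2 same-numbered pairs. The block, fitted over all libraries of a fit, is therefore an alternative here. Deviations of same-numbered libraries correlated at 0.481 to 0.658 between RNA groups and −0.038 to 0.329 between footprint groups. With each library left out in turn, called members ranged from 0 to 1 for footprints on heat shock in senescent cells and for efficiency in senescent over young control cells, and stayed at 0 in the other 13 comparisons. The 1 call for heat shock in senescent cells came without senescent heat shock replicate 1, and that in efficiency without the footprint library of senescent heat shock replicate 1 or 2. The summed footprint log2 ratio ranged from −2.07 to −0.58 for heat shock in young cells and from −2.01 to −0.64 for senescent over young control cells. It ranged from −1.27 to 0.95 for heat shock in senescent cells and from −1.30 to 1.01 for senescent over young heat shocked cells. Leaving out 1 library turned the sign of 110 of 259 changes of named members, none of them called: in footprints 23 of 23 for heat shock in senescent cells, 22 of 23 for senescent over young heat shocked cells, 16 of 23 for the difference in heat response and 1 of 23 each for heat shock in young cells and senescent over young control cells, in efficiency 26 and in RNA-seq 21. In 19 the value moved by over 2 SE, all in footprints of the first 2 of these comparisons, on leaving out senescent heat shock replicate 2 unless stated. For heat shock in senescent cells the changes ranged from −1.97 to 1.57 in HIST1H1B, −1.51 to 1.41 in HIST1H2AE, −0.87 to 0.68 in HIST1H2BD, −0.94 to 1.29 in HIST1H4H, −1.17 to 1.16 in HIST1H4J and HIST1H4K and −1.45 to 1.24 in HIST2H4A and HIST2H4B. For senescent over young heat shocked cells they ranged from −1.97 to 1.09 in HIST1H1B, −1.68 to 1.03 in HIST1H1E, −1.01 to 1.16 in HIST1H2AC, −1.84 to 1.20 in HIST1H2AE, −0.60 to 0.95 in HIST1H2BD, −1.10 to 0.61 in HIST1H2BG, −1.30 to 0.74 in HIST1H4E, −1.31 to 0.88 in HIST1H4H and −1.63 to 0.91 in HIST2H4A and HIST2H4B. HIST1H3E ranged from −1.88 to 1.89, and turned without young heat shock replicate 2. Library size only moved the summed RNA log2 ratio on heat shock to −0.11 in senescent and 0.10 in young cells. With 2 libraries per group the simulated 2-fold changes were mostly missed.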

Other observations

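The promoters of the clustered histone genes held motifs that their families share in part. Of the 69 genes, 53 matched an entry of RefSeq's promoter windows (GRCh38.p14), which run from 250 bases before to 50 after the start site. The octamer ATTTGCAT, the site read by POU2F1 with its coactivators in H2B genes, was found on either strand in 7 of 10 H2B and 10 of 15 H2A windows, in 0 of the 28 windows of H1, H3 and H4, and in 1.77% of all 35116 windows. CCAAT was in 44 of 53 (83%), against 34.6% of all windows, and in 3 of 12 H4 windows. TATAAA was in 34 of 53 (64.2%), against 11.5%. Matches of different motifs were counted separately, whether or not they overlapped. Windows of neighbouring H2A and H2B genes on opposite strands overlap in part, so the same site can enter the counts of both families. HIST2H2AC and HIST2H2BE share their octamer in this way, as do HIST1H2AG and HIST1H2BJ, HIST1H2AJ and HIST1H2BM, and HIST1H2AM and HIST1H2BO.

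The 150 bases before the start site are shown for an H2A and an H2B gene with many transcripts, and for an H3 gene seen almost only in footprints. Capitals mark the octamer, CCAAT and TATAAA on either strand.
HIST1H2AC (chr6:26124022-26124171, plus strand): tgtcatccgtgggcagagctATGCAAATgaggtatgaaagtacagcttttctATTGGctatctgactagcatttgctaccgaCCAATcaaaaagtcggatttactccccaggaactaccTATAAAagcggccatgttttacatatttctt
HIST2H2BE (chr1:149886683-149886832, minus strand): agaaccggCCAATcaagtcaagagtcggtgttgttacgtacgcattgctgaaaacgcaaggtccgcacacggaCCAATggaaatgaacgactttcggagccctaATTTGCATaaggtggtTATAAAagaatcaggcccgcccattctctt
HIST1H3B (chr6:26032100-26032249, minus strand): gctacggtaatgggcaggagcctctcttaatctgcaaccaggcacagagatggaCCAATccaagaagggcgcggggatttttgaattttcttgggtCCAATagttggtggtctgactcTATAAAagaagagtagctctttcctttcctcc

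The H2B share of histone footprints was 36.8% and 29.2% in senescent heat shocked cells, 33.5% and 27.6% in senescent control cells, 31.8% and 24.2% in young heat shocked cells, and 26.3% and 25.3% in young control cells. HIST1H2BK alone took 12.4% and 5.83%, 7.03% and 4.62%, 6.55% and 3.71%, and 3.05% and 2.82% in the same order. In each group its share was higher in replicate 1. HIST3H3 had 0 RNA counts in all 8 libraries and 19 footprint counts in all.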
